A study of Bos taurus with 4 samples.

Results

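The genes described here are 10 receptors, targets and inhibitors of bone morphogenetic protein (BMP) and transforming growth factor beta (TGF-beta) signalling, measured in granulosa cells of Holstein cows. They are the receptors BMPR1A, BMPR2, AMHR2, TGFBR1 and TGFBR2, the target genes ID1, ID2 and ID3, and the inhibitory SMADs SMAD6 and SMAD7. They were chosen by name, and every probe that the platform annotation pairs with one of these symbols was used. That gave 20 of the 43794 probes on the array, for 10 of the 15216 genes it names.

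The design text gives 94 Holstein cows of a commercial embryo production facility, sampled after ovarian stimulation and coasting, a pause in gonadotrophin before follicle aspiration. The question was how granulosa cells of good donors, whose oocytes were mostly competent, compare with those of poor donors. Pooled RNA was amplified over 2 rounds and hybridised on 4 two-colour oligonucleotide arrays, each with 1 good-donor and 1 poor-donor pool. Good-donor pools 1 and 2 carried the dye Cy5 and poor-donor pools 5 and 6 carried Cy3 on arrays 1 and 2. Poor-donor pools 7 and 8 carried Cy5 and good-donor pools 3 and 4 carried Cy3 on arrays 3 and 4. All pools came from stimulated and coasted cows, so there was no unstimulated reference. The number of cows in each pool is not stated, and the group labels rate the donors, not single follicles or oocytes.

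Ligands of the TGF-beta superfamily bind a pair of type II and type I serine/threonine kinase receptors on the cell surface. The type I receptor phosphorylates receptor-regulated SMADs, which join SMAD4 and enter the nucleus. BMPs and anti-Müllerian hormone act through one branch of SMADs and induce the ID genes, and TGF-beta and activin act through another. SMAD6 and SMAD7 are induced by the pathway and inhibit it in turn. In the follicle, granulosa cells receive such ligands from the oocyte, from the theca and from one another.

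Values are given as log2 levels, which are normalised separate-channel intensities of one probe, or as log2 ratios of the poor-donor over the good-donor pool of one array. Levels of different probes were not set against each other. A probe was above background where its raw spot intensity exceeded the mean of 153 negative control spots of that channel by 2 SD. A probe was kept where the 4 good-donor pools, the 4 poor-donor pools or both sets were all above background, as held for 26181 probes (59.8%). In single pools 64.3% to 72.7% of probes were above background. All 10 of the listed granulosa markers, among them FSHR, CYP19A1 and INHBA, were kept. Their mean log2 level was 11.8 to 12.2 in good-donor pools and 11.7 to 12.1 in poor-donor pools. Of the markers of other cells, 8 of 8 for theca and stroma, 5 of 8 for endothelium, 8 of 8 for leukocytes, 6 of 6 for surface or tubal epithelium and 2 of 6 for the oocyte were kept. Mean levels of the theca and stroma markers were 8.81 to 9.72 in good-donor pools and 9.39 to 9.96 in poor-donor pools. PECAM1, VWF and EMCN of endothelium, and GDF9, ZP2, ZP4 and DPPA3 of the oocyte, did not meet the filter. Some markers that met it were still dim. Log2 levels were 6.49 to 6.70 for BMP15 and 6.40 to 6.66 for ZP3 of the oocyte. They were 6.41 to 6.51 for CYP17A1 of theca and 6.33 to 6.88 for FOXL2 of granulosa cells.

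None of the members passed a test for a difference between good and poor donors. By limma with Benjamini-Hochberg adjustment, 0 of the 8 members kept passed an adjusted p of 0.05, and 0 had an unadjusted p under 0.05. Over all kept probes 0 of 26181 passed the adjusted threshold (0%), and the smallest adjusted p was 0.822. An unadjusted p under 0.05 was reached by 1560 kept probes (5.96%). At a looser threshold, which asks for an unadjusted p under 0.05 and a difference of 1.5-fold or more, 85 kept probes (0.325%) and 0 members were called. No member was higher in the poor pool on all 4 arrays, as 5.46% of kept probes were, or lower on all 4, as 5.89% were. In every member the levels of the 4 good-donor pools overlapped those of the 4 poor-donor pools. Of all kept probes 2.22% had levels that did not overlap. In such bulk RNA, fewer cells that express a gene and less of its RNA per cell cannot be told apart.

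Fitted ratios were below 0 for 5 of the 8 members and above 0 for 3, with a median of -0.01 on the log2 scale, against a median of 0.00 over all kept probes. The widest fitted log2 ratio was that of ID1, with a size of 0.32. The SD of the log2 ratio over the 4 arrays was 0.19 to 0.27 for the brightest probes of the 4 receptors kept and 0.39 to 0.63 for those of ID1, ID2, ID3 and SMAD6. No test was made of that difference, and the other ID3 probes had SDs of 0.18 to 0.40. The median SD over all kept probes was 0.20. Of all kept probes 47.7% to 66.9% had a smaller SD than these receptor probes, and 85.7% to 95.8% had a smaller SD than those of the ID genes and SMAD6.

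**Figure D1:**
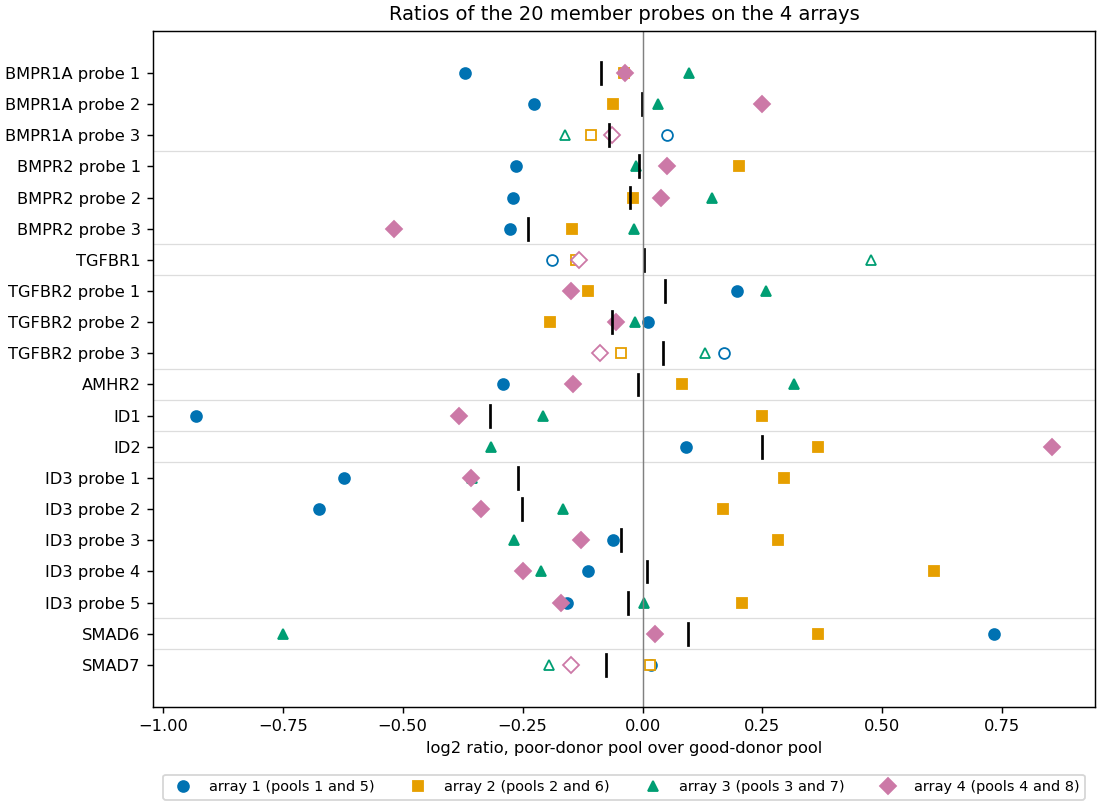
Log2 ratio of the poor-donor over the good-donor pool (horizontal axis) for each of the 20 probes of the 10 genes, with 1 symbol per array, open where the probe was not kept, and a black bar at the mean. Receptor probes mostly lie within 0.3 of 0, ID1 spans -0.93 to 0.25 and SMAD6 spans -0.75 to 0.73.

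BMPR1A is a type I receptor for BMPs. Its brightest probe (EMBV3_37450) had log2 levels of 9.14, 8.87, 8.61 and 9.05 in good-donor pools 1 to 4 and of 8.77, 8.84, 8.71 and 9.02 in poor-donor pools 5 to 8. The poor-donor levels all lay inside the range of the good-donor levels. The log2 ratio of poor over good was -0.09 ± 0.20 (SD, n = 4 arrays), with a 95% interval of -0.31 to 0.14 and an adjusted p of 0.915 in limma. Array 1 stood at -0.37 and the other arrays between -0.04 and 0.10. A second BMPR1A probe gave a mean ratio of 0.00 ± 0.20 (SD, n = 4), with array 1 again lowest at -0.23. The third probe was above background in 3 good-donor and 3 poor-donor pools and was not kept.

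BMPR2 is a type II receptor for BMPs and, in granulosa cells, for the oocyte factors GDF9 and BMP15. Log2 levels of its brightest probe (EMBV3_34909) were 7.52, 7.37, 7.29 and 7.53 in the good-donor pools and 7.26, 7.57, 7.28 and 7.58 in the poor-donor pools. Each group thus held pools near 7.3 and pools near 7.5, and the groups overlapped throughout. The ratio was -0.01 ± 0.19 (SD, n = 4), with a 95% interval of -0.27 to 0.26 and an adjusted p of 0.995 in limma. The second probe had a mean ratio of -0.03. The third and dimmest BMPR2 probe (EMBV3_01570) was lower in the poor pool on every array, at -0.28, -0.15, -0.02 and -0.52. It was the 1 probe of the 16 kept that had the same sign on all arrays. Its mean ratio of -0.24 ± 0.21 (SD, n = 4) had an unadjusted p of 0.078 and an adjusted p of 0.830 in limma, and only 3 of the 4 poor-donor pools were above background. All 3 BMPR2 probes had a mean ratio below 0, no difference between the probes was tested, and array 1 was the only array with a ratio under -0.2 for all 3.

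AMHR2 is the type II receptor of anti-Müllerian hormone, a product of the granulosa cells themselves. Its probe (EMBV3_16329) had log2 levels of 7.25, 6.94, 7.11 and 7.25 in good-donor pools and of 6.96, 7.02, 7.43 and 7.11 in poor-donor pools. Poor-donor pool 7 was the highest of the 8 and good-donor pool 2 the lowest. The ratios of -0.29, 0.08, 0.32 and -0.15 averaged -0.01 ± 0.27 (SD, n = 4), with a 95% interval of -0.32 to 0.30 and an adjusted p of 0.994 in limma. AMH, the ligand, was at -0.32 ± 0.51 (SD, n = 4) and did not pass the test either.

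TGFBR2 binds TGF-beta and recruits TGFBR1, the type I receptor of that ligand. The brightest TGFBR2 probe (EMBV3_23685) had log2 levels of 7.05, 7.28, 7.14 and 6.97 in good-donor pools and of 7.25, 7.17, 7.39 and 6.82 in poor-donor pools. The poor-donor pools held both the highest level, in pool 7, and the lowest, in pool 8. The ratio was 0.05 ± 0.21 (SD, n = 4), with a 95% interval of -0.23 to 0.33 and an adjusted p of 0.968 in limma. A second TGFBR2 probe stood at -0.06 ± 0.09 (SD, n = 4), so the sign was not shared between the probes. The third probe was above background in 1 good-donor pool and in no poor-donor pool.

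TGFBR1 was represented by 1 probe (EMBV3_22219), which was above background in 0 good-donor pools and 1 poor-donor pool. That was pool 7, with a raw intensity of 53 against a bound of 49.0. Log2 levels were 5.93 to 6.40 in the 8 pools, about the level of the 7378 probes below background everywhere, whose medians were 6.11 to 6.13. No ratio can be read from it in either direction at this brightness.

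**Figure D2:**
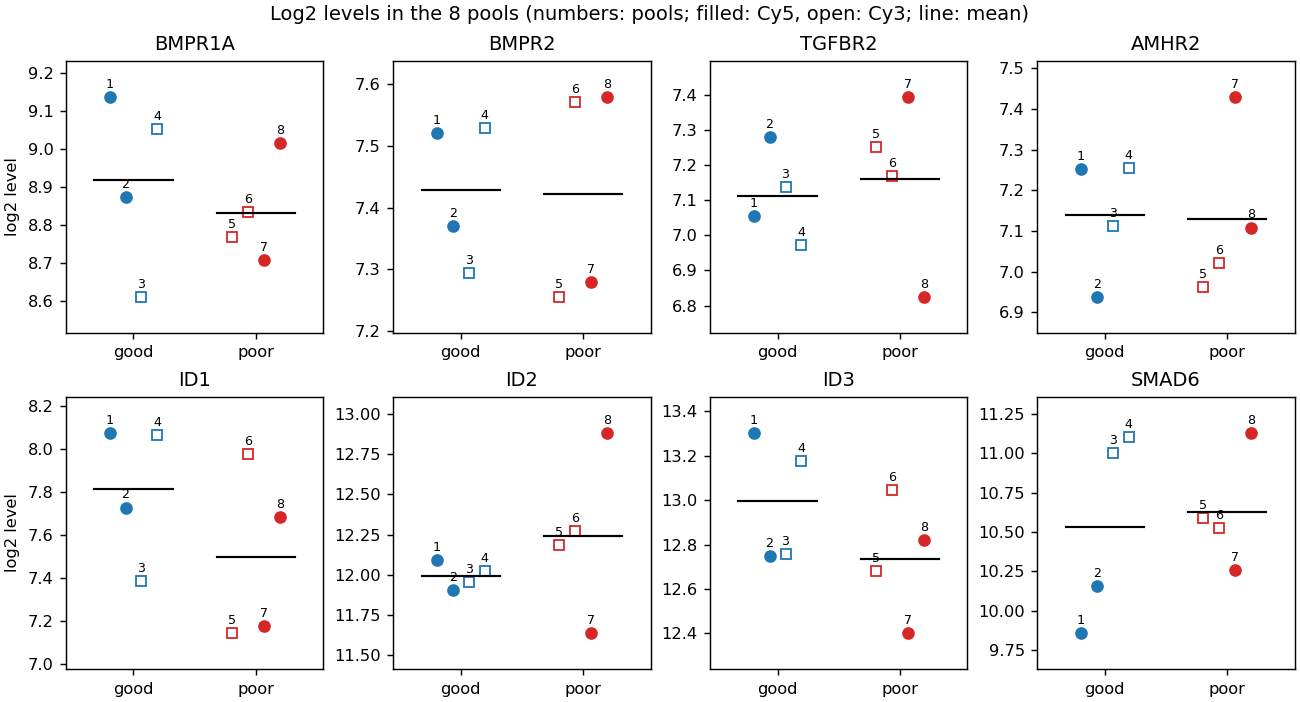
Log2 level (vertical axis, scaled separately for each gene) of the brightest probe of the 8 members kept, in good-donor pools 1 to 4 and poor-donor pools 5 to 8, filled for Cy5 and open for Cy3, with a line at the mean. The groups overlap in each panel, and ID2 spreads more among poor-donor pools (11.64 to 12.88) than among good-donor pools (11.91 to 12.09).

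The ID genes encode helix-loop-helix proteins without a DNA-binding region, which hold back basic helix-loop-helix transcription factors and are classic early targets of BMP signalling. ID1 and ID3 had lower mean levels in poor donors and ID2 a higher one, and none of these differences passed the test. ID1 (probe EMBV3_06655) had log2 levels of 8.07, 7.73, 7.38 and 8.07 in good-donor pools and of 7.14, 7.98, 7.18 and 7.68 in poor-donor pools. The 2 lowest pools, 5 and 7, were poor-donor pools and the 2 highest, 1 and 4, good-donor pools, with pools 2, 3, 6 and 8 mixed between. Ratios were -0.93, 0.25, -0.21 and -0.38 on arrays 1 to 4. Their mean was -0.32 ± 0.49 (SD, n = 4), a 1.25-fold lower level in poor donors, with a 95% interval of -0.87 to 0.23 and an adjusted p of 0.864 in limma. Within pools labelled with Cy5 the poor-minus-good difference was -0.47, and within those labelled with Cy3 it was -0.17.

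ID3 was the member with most probes, 5, all kept. The brightest (EMBV3_23014) had log2 levels of 13.30, 12.75, 12.76 and 13.18 in good-donor pools and of 12.68, 13.05, 12.40 and 12.82 in poor-donor pools. Good-donor pools 1 and 4 were again highest and poor-donor pools 5 and 7 lowest. The ratios of -0.62, 0.30, -0.36 and -0.36 averaged -0.26 ± 0.39 (SD, n = 4), with a 95% interval of -0.70 to 0.18 and an adjusted p of 0.857 in limma. The other ID3 probes had mean ratios of -0.25, -0.04, 0.01 and -0.03. The array-to-array pattern was shared more than the mean was: all 5 probes were below 0 on arrays 1 and 4, all 5 were above 0 on array 2, and 4 of 5 were below 0 on array 3. These probes read the same RNA of the same pools, so they are not separate evidence on the donors.

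Single arrays decided the size of the fitted ratio for ID1 and ID3. The fit weighs both dye orientations equally, so when an array is left out the other array of its orientation gains weight. The values below are such fitted ratios, not plain means of the ratios left. Without array 2, the one array on which both were higher in the poor pool, ID1 stood at -0.61 (1.53-fold lower in poor donors) and ID3 at -0.49 (1.40-fold). Array 2 was picked for its sign, so the larger size follows from that choice and the changed weights and is no support for a difference. ID1 then was the 1 member past the looser threshold, as were 292 kept probes (1.12%), and neither gene passed the adjusted one. Without array 1, ID1 stood at -0.02 and ID3 at -0.03.

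ID2 (probe EMBV3_35871) had log2 levels of 12.09, 11.91, 11.96 and 12.02 in good-donor pools, which lie close together. In the poor-donor pools it had levels of 12.18, 12.27, 11.64 and 12.88, which include both the lowest and the highest of the 8. The SD between pools was 0.08 in good donors and 0.51 in poor donors, and that difference in spread was not tested. The ratios of 0.09, 0.37, -0.32 and 0.85 averaged 0.25 ± 0.49 (SD, n = 4), with a 95% interval of -0.31 to 0.80 and an adjusted p of 0.900 in limma. Without array 4, on which it was highest, the fitted ratio was -0.045. Without array 3, on which it was lowest, the fitted ratio was 0.54, and ID2 passed neither threshold. Both arrays were picked by their values, so these shifts follow from the choice. They also follow from the dye term, which gives more weight to the array left in the same dye orientation. They are not plain means of the ratios left.

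SMAD6 inhibits mainly the BMP branch and SMAD7 both branches. SMAD6 (probe EMBV3_33494) had log2 levels of 9.86, 10.16, 11.00 and 11.10 in good-donor pools and of 10.59, 10.52, 10.26 and 11.13 in poor-donor pools. Its ratios of 0.73, 0.37, -0.75 and 0.03 had the largest SD of the 8 members and averaged 0.09 ± 0.63 (SD, n = 4). The 95% interval ran from -0.32 to 0.51 and the adjusted p was 0.952 in limma. Both arrays with the good-donor pool in Cy5 gave a higher poor-donor level, and the arrays with the poor-donor pool in Cy5 gave -0.75 and 0.03. Among the Cy5 pools the poor-minus-good difference was 0.68, and among the Cy3 pools it was -0.50. With 2 pools per group and dye, a dye effect on this probe and a difference between pools cannot be told apart.

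SMAD7 (probe EMBV3_29191) was not kept, being above background in 2 good-donor pools and 0 poor-donor pools. The 2 were pools 3 and 4, with raw intensities of 109 and 107 against bounds of 106 and 102. Poor-donor pool 5 missed its bound narrowly, with 108 against 109. The mean log2 level was 6.36 in good donors and 6.28 in poor donors, and when all probes were tested the adjusted p was 0.926 in limma. All 8 levels lay within 6.21 to 6.41, close to the level of probes that were below background everywhere, and no fold is given.

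ID1 and the brightest ID3 probe had the same 3 lowest pools. After each level was taken relative to the mean of the 4 pools of the same dye, ID1 was lowest in pools 3, 5 and 7, at -0.26, -0.50 and -0.49. The same 3 pools were lowest for the brightest BMPR2 probe and for 3 of the 5 ID3 probes, the brightest among them. The other 2 ID3 probes had pools 4, 5 and 7 and pools 2, 3 and 5 lowest. Of all kept probes 776 (2.96%) had these 3 pools lowest. The pattern crosses the donor groups, since pool 3 is a good-donor pool and pools 5 and 7 are poor-donor pools. Across the 8 pools the dye-centred levels of ID1 and ID3 had a Pearson correlation of 0.926, against 0.256 for ID1 and ID2. These correlations are descriptions, because pools on one array share its spots and hybridisation.

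Of the 6 markers of surface or tubal epithelium, 2 were lowest in the same pools and 4 were not. OVGP1, the oviductal glycoprotein, had log2 levels of 11.30, 10.42, 6.74 and 9.88 in good-donor pools and of 6.76, 10.96, 6.45 and 12.42 in poor-donor pools. EPCAM, an epithelial adhesion molecule, had levels of 10.39, 10.17, 6.89 and 9.67 in good-donor pools and of 8.52, 10.38, 7.39 and 10.17 in poor-donor pools. Both were lowest in pools 3, 5 and 7. The remaining 4 of the 6 markers, the keratins KRT7, KRT8, KRT18 and KRT19, had other pools among their lowest 3. KRT8 and KRT18 had their highest dye-centred levels in pool 7, at 1.75 and 2.47, and KRT19 had its highest in pool 5, at 0.95. The mean level of the 6 markers was 8.84 to 11.43 in good-donor pools and 10.02 to 10.88 in poor-donor pools. The part of such cells in the ID1 and ID3 values was not tested.

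**Figure D3:**
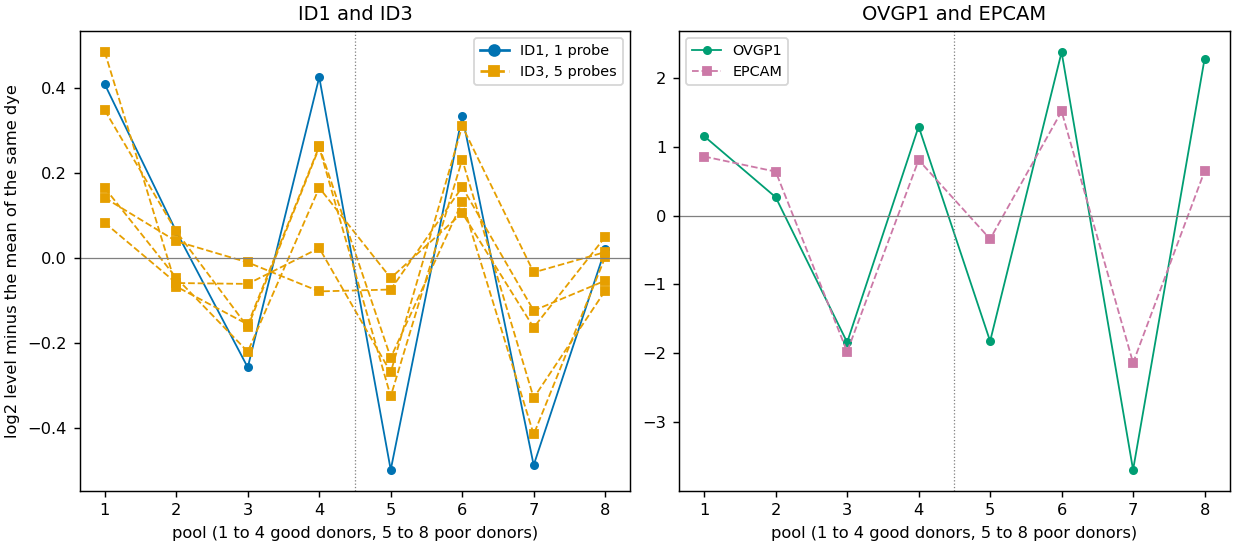
Dye-centred log2 level (vertical axes, with different ranges) in pools 1 to 8 for the ID1 probe and the 5 ID3 probes (left) and for OVGP1 and EPCAM (right), with lines that join the values of one probe and do not mark an order of pools. ID1 is at -0.50 in pool 5 and -0.49 in pool 7, and OVGP1 is at -3.69 in pool 7.

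The genes whose dye-centred levels were most like those of each target were looked up among the 10975 other genes with a kept probe, over the 8 pools and with no test. For ID1 they were PPP2R2B, a regulatory subunit of a protein phosphatase (r = 0.990), the transcription factor MYB (r = 0.975) and the radial spoke gene RSPH10B (r = 0.972). All 3 had their lowest levels in pools 3, 5 and 7, which follows from their choice by likeness to ID1. In pool 5 PPP2R2B and MYB were at 6.14 and 6.12, about the level of probes below background everywhere. For ID3 they were WFDC5 (r = 0.980), FAM174B (r = 0.975) and LRP2BP (r = 0.970). For ID2 they were the signal peptidase subunit SEC11A (r = 0.987), PLEKHG3 (r = 0.966) and STOM (r = 0.964). SMAD6 was most like KRTCAP3 (r = 0.988), LOC617218 (r = 0.987) and the kinase CSK (r = 0.976). No gene appeared under more than 1 target.

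The rest of the pathway was read from 6 lists of 77 genes, of which 54 had a kept probe. By limma 0 of the 54 passed the adjusted threshold, 7 had an unadjusted p under 0.05 and 2 passed the looser threshold, read against 5.96% and 0.325% of all kept probes. Fitted ratios were above 0 for 32 genes and below 0 for 22, with a median of 0.04. On all 4 arrays 5 genes were higher and 2 were lower in the poor pool, read against 5.46% and 5.89% of all kept probes.

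Among the ligands 13 of 18 were kept, with 7 ratios above 0, 6 below and a median of 0.00. The smallest p was that of INHA, the alpha subunit of inhibin, with ratios of -1.79, -1.70, 0.40 and 0.68 and a mean of -0.60 ± 1.32 (SD, n = 4). Its sign followed the dye orientation of the arrays, and its adjusted p was 0.822 in limma. TGFB3, a TGF-beta ligand, had ratios of -1.07, -1.10, 0.20 and -0.38 and a mean of -0.59 ± 0.62 (SD, n = 4). It too was lower in the poor pool on both arrays of one orientation and split on the other. BMP5, GDF9, TGFB1, TGFB2 and GDF15 did not meet the filter.

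Other receptors and co-receptors were kept for 9 of 12, with 6 ratios above 0, 3 below and a median of 0.06. ACVR2B, a type II receptor of activin, was higher in the poor pool on all 4 arrays, at 0.08, 0.24, 0.34 and 0.21. Its mean of 0.22 ± 0.11 (SD, n = 4) had an unadjusted p of 0.031 and an adjusted p of 0.83 in limma. Its levels were 6.71 to 6.93 in good-donor pools and 6.94 to 7.16 in poor-donor pools, without overlap, as for 2.22% of all kept probes. The gap was narrow, from 6.926 in good-donor pool 2 to 6.936 in poor-donor pool 8. INHBB of the ligands and SKIL of the intracellular inhibitors were also higher in poor-donor pools without overlap. SKIL was dim, at levels of 6.33 to 6.63, and its gap was narrow too, from 6.558 in good-donor pool 1 to 6.570 in poor-donor pool 7. The activin type I receptor ACVR1B stood at 0.11 ± 0.25 (SD, n = 4). Signal-transducing SMADs were kept for 5 of 6, with a median of 0.02. SMAD4, the shared partner, stood at 0.16 ± 0.30 and SMAD9 at -0.06 ± 0.15 (SD, n = 4).

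Secreted antagonists and latent-form regulators were kept for 9 of 13, with 5 ratios above 0, 4 below and a median of 0.02. BMPER, a secreted BMP-binding protein, stood at 0.42 ± 0.53, with 1.08 on array 3 and -0.19 on array 2. LTBP3, which holds latent TGF-beta in the matrix, was lower on all 4 arrays at -0.33 ± 0.37, with -0.86 on array 2 as its largest difference. Intracellular inhibitors were kept for 11 of 12, with 6 ratios above 0, 5 below and a median of 0.01. The SMAD co-repressor SKI was higher on all 4 arrays at 0.15 ± 0.13 (SD, n = 4), with only 0.0077 on array 3. TGIF1, another co-repressor, stood at 0.24 ± 0.38.

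Further target genes were kept for 7 of 16, with 5 ratios above 0, 2 below and a median of 0.22. CDKN1A, a cell cycle inhibitor induced by TGF-beta, had ratios of 0.23, 0.26, 0.43 and 1.01. Its mean of 0.48 ± 0.37 (SD, n = 4) had an unadjusted p of 0.011 and an adjusted p of 0.822 in limma. CCN1, a matricellular protein, had ratios near 0 on arrays 1 and 2 and of 0.61 and 0.75 on arrays 3 and 4. That split followed the dye orientation of the arrays. Its mean of 0.34 ± 0.40 (SD, n = 4) had an unadjusted p of 0.0047 and an adjusted p of 0.822 in limma. HEY1, MSX2, ATOH8, RUNX1 and TAGLN did not meet the filter, and the remaining listed targets were not analysed here.

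**Figure D4:**
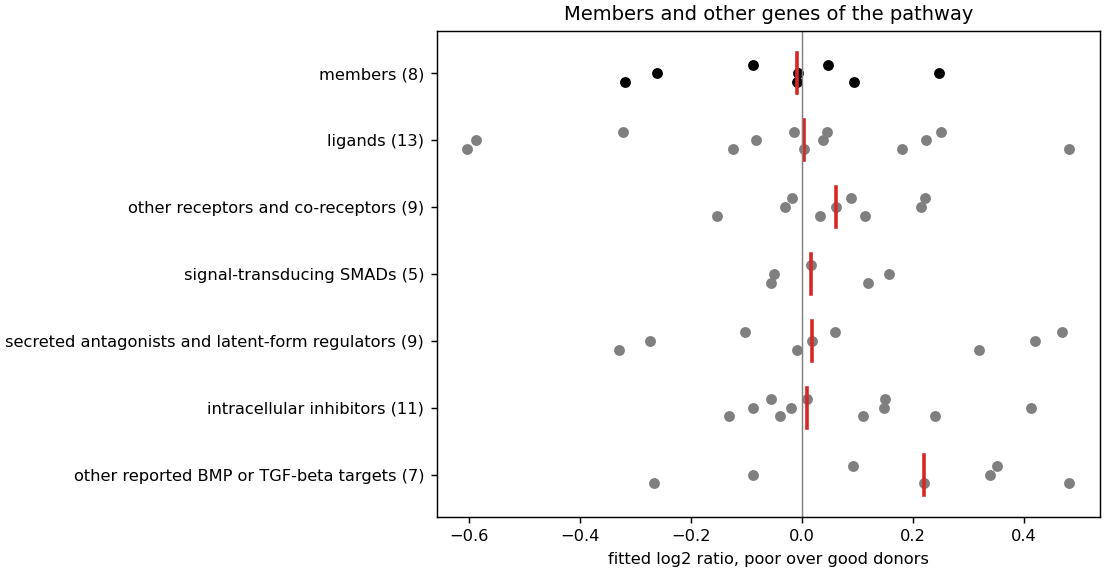
Fitted log2 ratio of poor over good donors (horizontal axis) for the 8 members kept and the 54 other pathway genes kept, 1 point per gene in rows by role with the number kept in brackets, and a red bar at each row's median. The medians of the members and of 5 lists lie between -0.01 and 0.06, and that of the 7 other targets at 0.22.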

How the data were processed

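The scanner tables hold median and mean spot and local background intensity at 635 nm (Cy5) and 532 nm (Cy3), deposited without normalization, per the file headers. The series matrix holds a log2 ratio per probe deposited by the authors. How they normalised it is not given in the sources at hand. It ran as poor over good and correlated at 0.971 to 0.980 with the ratios below.

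Median intensities were corrected with normexp (offset 50) and normalised by loess (span 0.3, control spots at weight 0) in limma 3.58.1 (R 4.3.3). Levels came from Aquantile scaling between arrays. Limma fitted poor over good with a dye term per probe, leaving 2 residual and 2.51 prior degrees of freedom, and p-values were adjusted over 26181 probes. They measure only the spread between arrays of one dye orientation, and precision is limited by having 4 arrays. The median raw intensity of an array ranged from 49 to 58 for Cy5 and from 121 to 164 for Cy3.

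The platform annotation names 21790 probes and leaves 22004 unnamed here; symbols were updated through the ARS-UCD2.0 annotation. A gene with several kept probes was represented by the brightest. The members and gene lists were chosen with earlier results of these data known. All members were named. From each list the 2 genes ranked first by p were named, and so were the 3 genes most like each kept ID gene and SMAD6. From the marker lists these were INHA and NR5A2, LUM and COL1A1, TEK and CLDN5, CD3E and AIF1, KRT19 and KRT7, and BMP15 and ZP3, at mean log2 ratios of -0.60, -0.25, 1.85, 0.46, -0.07, 0.08, -0.44, 0.16, -0.37, -0.14, -0.08 and -0.05. A planned search of promoters for SMAD motifs was not run, for want of sequences of the files' build. Genome positions are not given for the same reason. The 4 arrays are areas of 1 slide, so slide is not a batch. Alternatives changed the dye term, normalization, background correction, spot summary, dim-probe filter, model, source of ratios, probe rule and arrays used. The fit was also run on simulated normal noise with added differences, as a check of their sign and size only. Its power to detect differences between these pools is not reported here.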

Additional observations from a re-analysis of the deposited data

How the results depend on the processing

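No kept probe and no member passed the adjusted threshold under any of the 13 alternatives run, and the separate-channel fit had the smallest adjusted p over all probes at 0.173 against 0.822 as reported. ID1, ID3 and BMPR1A kept a ratio below 0 in all 13, but not all of the 13 could change a ratio. The fit without a dye term, both changes of the dim-probe filter and the separate-channel fit gave the same ratios as reported. Leaving out arrays moved ID1 between -0.61 and -0.02, ID3 between -0.49 and -0.03 and BMPR1A between -0.17 and -0.004. The other 9 alternatives moved ID1 between -0.37 and -0.17 and ID3 between -0.34 and -0.12. BMPR2 turned to 0.0061 with the mean spot intensity. TGFBR2 turned to -0.0065 with the mean spot intensity and to -0.0076 with the mean over all its kept probes. Leaving out 1 array at a time gave -0.12 to 0.11 for BMPR2, -0.054 to 0.15 for TGFBR2, -0.12 to 0.11 for AMHR2, -0.045 to 0.54 for ID2 and -0.10 to 0.29 for SMAD6. It gave 0 to 1 members past the looser threshold and 0 to 3 members with one sign on the arrays left, which are then only 3. The cause of these turns was not tested. Over all probes 85 passed the looser threshold as reported, 128 with plain background subtraction, 128 with the deposited ratios, 32 with the mean spot intensity, and 136, 292 and 331 without arrays 1, 2 and 4. Each ratio already pairs the good-donor and poor-donor pool of one array, so no further pairing was fitted. Dim signal limits TGFBR1 and SMAD7. The 95% intervals of all 8 members kept had half-widths above the median over kept probes, which was 0.21 on the log2 scale. They were widest for the ID genes and SMAD6.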

Other observations

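A minority of pathway genes shared a pattern of signs over the arrays that crosses the donor groups. Of the 54 kept genes of the 6 lists, 14 (25.9%) had a lower poor-donor level on arrays 1 and 4 and a higher one on arrays 2 and 3, against 1538 kept probes (5.87%). The pattern was chosen after the values were seen, and no test was made of it. The 14 were the ligands BMP2, BMP4 and BMP6, the receptor BMPR1B, the co-receptor RGMB, SMAD1 and SMAD3, the antagonist FSTL3, the inhibitors BAMBI, SMURF2, NEDD4L and FKBP1A, and the targets CCN2 and FN1. Some of these signs rest on ratios near 0 of dim probes. RGMB had -0.0077 and 0.0011 on arrays 1 and 3, at log2 levels of 6.58 to 6.77. NEDD4L had 0.019 and -0.016 on arrays 2 and 4, at levels of 6.22 to 6.68. Several others lay far from 0 on single arrays. BMP2 had ratios of -1.53, 1.35, 3.80 and -1.70, with log2 levels of 10.19, 8.23, 7.63 and 9.70 in good-donor pools and of 8.66, 9.58, 11.43 and 8.00 in poor-donor pools. FSTL3, a follistatin-like antagonist of activin, had ratios of -1.84, 0.52, 3.78 and -0.59. CCN2, a matricellular target of TGF-beta, had ratios of -0.31, 0.32, 1.98 and -0.59. The highest level of all 3 was in poor-donor pool 7 and their next highest in good-donor pool 1, so each donor group held a pool with high levels. The same signs were seen in 4 markers of other cells and not in the rest. Those kept were 8 for theca and stroma, 5 for endothelium, 8 for leukocytes, 6 for epithelium and 2 for the oocyte. COL1A2 of stroma had -1.35, 1.82, 1.90 and -0.97, and KRT8 of epithelium had -1.04, 0.02, 4.39 and -0.48. The others were CLDN5 and ESAM of endothelium, with ESAM only within -0.03 to 0.10. LUM, COL1A1 and COL3A1 of stroma were instead higher in the poor pool on all 4 arrays. Among the 8 members kept only AMHR2 had this order of signs. ID1 and ID3 were lower on arrays 1, 3 and 4 and higher on array 2, as were 6.61% of kept probes. ID2 and SMAD6 were lower on array 3 alone, as were 5.45%.

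The keratins of simple epithelia KRT8 and KRT18 were also highest in pool 7, with log2 levels of 15.47 and 12.79 there and at most 13.96 and 10.02 in the other pools. The other 4 of the 6 epithelium markers went the other way. OVGP1 and KRT19 had their lowest levels in pool 7, at 6.45 and 12.67. Dye-centred levels in pool 7 were -2.14 for EPCAM and -0.73 for KRT7. The part of other cells in the levels of BMP2, FSTL3 and CCN2 was not tested.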
